A study of Mus musculus with 19 samples.

Results

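C2C12 mouse myoblasts that had been given 100 nM thapsigargin for 6 h and then kept in thapsigargin-free medium for 48 h are compared here with C2C12 cells given the vehicle DMSO for 6 h. The comparison rests on 6 RNA-seq libraries, 3 labelled as recovery and 3 as DMSO 6 h, out of 19 in the series. C2C12 is an established mouse myoblast line, and all the cells are labelled wild type and were grown in serum-containing medium. The other groups compared are DMSO 2 h (3 libraries) and DMSO 12 h (2 libraries), which serve as side checks. Thapsigargin 6 h at 100 nM (3 libraries) gives the level at the end of the drug. The libraries of thapsigargin 2 h and 12 h, also at 100 nM, are not compared here. They entered the fit to all 19 libraries, and so its scaling and its estimate of the spread. The question is what remained different from vehicle cells 48 h after the drug was taken away. Recovery cells had been in the experiment for the 6 h of drug plus the 48 h without it, and no vehicle group with that total time was analysed, so time in culture and recovery cannot be told apart. The labels do not say whether libraries of a group came from separate cultures, so the p-values speak to the spread among the deposited libraries alone, which may be technical.

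Thapsigargin blocks the SERCA pumps that load calcium into the endoplasmic reticulum (ER). Loss of ER calcium disturbs protein folding there and sets off the unfolded protein response, which raises chaperones such as BiP. The kinase PERK then phosphorylates eIF2 alpha and starts the integrated stress response, in which the transcription factor ATF4 and partners such as C/EBP gamma raise genes of amino acid supply and feedback genes such as Trib3 and Chac1.

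The 3 DMSO 6 h libraries held 31667713 to 33832889 reads in genes, and the 3 recovery libraries 23591780 to 38313263, of which replicate 1 had the fewest. Levels are given as CPM, a gene's counts scaled to a common effective library size. Recovery replicate 1 stood apart. Mitochondrially encoded genes took 14.9% of its gene reads against 2.05% to 2.23% in the other recovery libraries and 1.87% to 2.95% in the DMSO 6 h libraries, and its 50 most abundant genes took 36.8% of reads against 13.6% to 21.1%. None of 7 library measures separated the groups by an exact two-sided permutation test (p from 0.2 to 1, with 0.1 the smallest that 3 against 3 allows). The vehicle groups of other times differed from both groups in a trend with transcript length. The median log2 deviation of protein-coding genes with transcripts in the upper length quartile (at least 4912 bases) minus that of genes in the lower quartile (at most 2288 bases) ran from -1.56 to -0.73 in DMSO 6 h and from -1.80 to -0.16 in recovery, against 0.74 to 1.30 in DMSO 2 h and 0.70 to 0.71 in DMSO 12 h. All 7 defining myoblast markers were detected in both groups. Of 8 macrophage markers 6 were under 1 CPM in all 6 libraries, with Adgre1, Itgam and Tyrobp at 0 counts, as were 5 of 6 endothelial markers and 6 of 8 epithelial markers, with Epcam and Esrp1 at 0 counts. Summed marker levels overlapped between the groups for macrophages (26.4 to 36.3 CPM in recovery and 27.0 to 37.7 CPM in DMSO 6 h) and epithelium (93.5 to 407 against 84.3 to 163 CPM), whereas the endothelial sum was 1.03 to 1.45 CPM against 0.592 to 0.977 CPM and the adipocyte sum 40.5 to 46.3 CPM against 32.6 to 39.6 CPM. Of 7 adipocyte and 8 osteoblast markers, 4 and 4 were under 1 CPM in all 6 libraries. The osteoblast sum was 733 to 2809 CPM in recovery and 2039 to 4098 CPM in DMSO 6 h. Single genes carried some of these sums. Spp1 alone was at 697 to 2753 CPM in recovery and 1994 to 4039 CPM in DMSO 6 h, and Krt19, of the epithelial markers, at 91.8 to 401 and 83.2 to 159 CPM. Of the endothelial markers, Pecam1 reached at most 1.37 CPM in recovery and 0.125 CPM in DMSO 6 h.

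Few genes differed. Among 18039 genes tested, 59 were called at an adjusted p under 0.05 (0.327% of the genes tested), of which 37 were higher in recovery (0.205%) and 22 lower (0.122%), by edgeR's quasi-likelihood test with Benjamini-Hochberg adjustment over all genes. The median log2 difference over all genes tested was 0.06, and 1766 genes had an unadjusted p under 0.05. Of the called genes, 35 of the 37 higher and 18 of the 22 lower differed by at least 2-fold. All 59 had recovery libraries wholly above or below the DMSO 6 h libraries, against a background of 4.71% of all genes tested wholly above and 5.43% wholly below. The 59 were selected for a difference between these same libraries, so their lack of overlap is not separate support. In bulk RNA a change in the number of cells of a kind and a change in RNA per cell cannot be told apart. The number of calls rested on how the spread and the scale were estimated. A fit on the 6 libraries alone called 0 genes in edgeR (481 at an unadjusted p under 0.05, smallest adjusted p 0.124) and 55 in DESeq2, total-count scaling called 17, of which 14 were among the 59, and DESeq2 on all 19 libraries called 422, the 59 included. All 59 had the same sign under each of 3 other scalings.

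**Figure D1:**
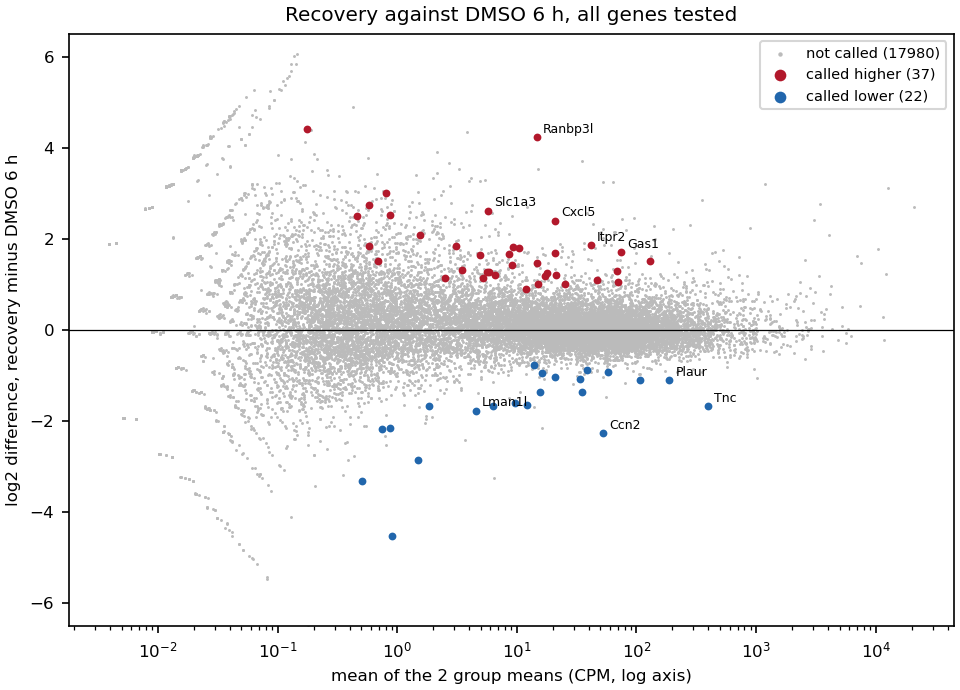
Each point is a gene tested, with the mean of its 2 group means in CPM (log axis) across and the log2 difference of recovery minus DMSO 6 h upwards. The 37 genes called higher are red, the 22 called lower are blue, and the labelled genes include Ranbp3l at 4.23 and Ccn2 at -2.27.

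The genes that rose included secreted growth and chemotactic factors, collagen VI, a growth arrest gene and transporters. Ranbp3l, a Ran-binding protein gene at chr15:8967949-9067335 (mm10), had the highest log2 difference of the genes chosen for naming. It stood at 1.68, 1.59 and 1.19 CPM in the DMSO 6 h libraries and at 36.9, 21.4 and 25.7 CPM in the recovery libraries. Every recovery library was far above every DMSO 6 h library. The log2 difference was 4.23 ± 0.30 (SE, 3 libraries per group), or 18.7-fold (edgeR adjusted p = 4.43e-06). Each SE of a log2 difference here rests on a spread estimated over all 19 libraries, not on the compared libraries alone. In edgeR's fit on the 6 libraries alone, the adjusted p of Ranbp3l was 0.124. Slc1a3, which encodes a glutamate and aspartate transporter of the plasma membrane, measured 1.77, 1.65 and 1.46 CPM in DMSO 6 h and 3.95, 14.8 and 11.05 CPM in recovery. Replicate 1 was the lowest of the recovery libraries but still above all vehicle libraries of 6 h, and the log2 difference was 2.62 ± 0.35 (edgeR adjusted p = 0.00278).

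Chemokines and growth factors formed part of the higher group. Cxcl5, a neutrophil-attracting chemokine, measured 7.39, 6.66 and 6.01 CPM in DMSO 6 h and 35.5, 33.7 and 36.6 CPM in recovery. The recovery libraries were nearly alike, 5.27-fold above the vehicle (log2 2.40 ± 0.18, edgeR adjusted p = 4.63e-06). Ccl7, a monocyte-attracting chemokine, rose from 10.6 ± 0.82 to 25.3 ± 4.21 CPM (SD, n = 3 per group), a log2 difference of 1.26 ± 0.18 (edgeR adjusted p = 0.0048). Ptn, which encodes the heparin-binding growth factor pleiotrophin, rose from 4.10 ± 0.72 to 14.4 ± 1.79 CPM. Vegfd, a ligand for the lymphatic receptor VEGFR-3, measured 5.13, 3.96 and 4.74 CPM in DMSO 6 h and 27.3, 10.99 and 10.3 CPM in recovery. Its recovery value was carried in large part by replicate 1: the log2 difference was 1.80 ± 0.34 with that library and 1.21 without it (edgeR adjusted p = 0.031 and 0.0325).

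Collagen VI chains and other matrix genes also rose. Col6a1 (chr10:76708792-76726168) measured 76.9, 71.9 and 54.2 CPM in DMSO 6 h and 147, 225 and 205 CPM in recovery. The groups were well apart, with a log2 difference of 1.505 ± 0.19 (edgeR adjusted p = 0.00239). Col6a2, its partner chain in the collagen VI trimer, rose from 39.5 ± 3.41 to 97.2 ± 24.4 CPM (log2 1.30 ± 0.24, edgeR adjusted p = 0.0241). Spon2, a secreted matrix protein of the spondin family, measured 12.3, 8.56 and 9.09 CPM in DMSO 6 h and 40.9, 24.02 and 31.4 CPM in recovery, and the groups did not overlap. Adamts5, an aggrecan-cleaving metalloprotease, and Olfml3, a secreted olfactomedin-domain protein, were chosen for mention after their values were seen and rose by 1.42 ± 0.23 and 1.10 ± 0.21 on the log2 scale. Gas1, a growth arrest gene that also acts as a Hedgehog co-receptor, measured 38.7, 38.5 and 27.2 CPM in DMSO 6 h and 92.3, 119 and 129 CPM in recovery. All recovery libraries exceeded all DMSO 6 h libraries, by 3.26-fold on average (log2 1.71 ± 0.18, edgeR adjusted p = 0.000372).

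Channels, metabolism and cytoskeleton made up another group. Itpr2, an ER calcium release channel, measured 17.2, 14.2 and 22.02 CPM in DMSO 6 h and 122, 38.5 and 35.5 CPM in recovery. Replicate 1 was over the others, and the log2 difference was 1.87 ± 0.35 with it and 1.05 without it (edgeR adjusted p = 0.0306 and 0.00797). Kcnj2, an inward rectifier potassium channel, rose from 4.16 ± 1.67 to 13.1 ± 5.60 CPM. Gpt2, the mitochondrial alanine aminotransferase and a target of ATF4, measured 46.6, 47.3 and 43.2 CPM in DMSO 6 h and 96.3, 97.7 and 89.5 CPM in recovery, with tight replicates in each group and a log2 difference of 1.05 ± 0.17 (edgeR adjusted p = 0.0118). Avil, which encodes the actin-binding protein advillin, measured 2.90, 2.49 and 1.70 CPM in DMSO 6 h and 7.57, 6.42 and 8.28 CPM in recovery. It rose by 1.64 ± 0.23 on the log2 scale. The kinesin genes Kif21b and Kif26b, the inflammatory caspase gene Casp4 and Ndrg2, named after their values were seen, rose by 1.46 ± 0.21, 1.85 ± 0.23, 1.31 ± 0.22 and 1.20 ± 0.21.

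The genes that fell included ligands of the EGF receptor, matricellular proteins and proteins of proteolysis at the cell surface. Ccn2 (chr10:24595442-24598683), also known as connective tissue growth factor and a standard target of the YAP and TEAD proteins, measured 85.9, 95.7 and 80.4 CPM in DMSO 6 h and 13.5, 20.8 and 19.995 CPM in recovery. Each recovery library was far below each DMSO 6 h library, and the level was 4.82-fold lower (log2 -2.27 ± 0.20, edgeR adjusted p = 3.17e-05). Tnc, the matrix glycoprotein tenascin C, measured 615, 636 and 566 CPM in DMSO 6 h and 123, 236 and 210 CPM in recovery, and fell by 1.67 ± 0.22 on the log2 scale (edgeR adjusted p = 0.00278). Hbegf, a membrane-anchored EGF receptor ligand, measured 51.1, 57.9 and 42.5 CPM in DMSO 6 h and 10.2, 25.8 and 22.2 CPM in recovery. Its groups did not overlap, with a log2 difference of -1.37 ± 0.25 (edgeR adjusted p = 0.0256). Areg, another EGF receptor ligand named after its values were seen, fell from 45.9 ± 0.74 to 21.6 ± 6.16 CPM (SD, n = 3 per group; edgeR adjusted p = 0.031).

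Surface proteolysis and secreted factors followed. Plaur, the urokinase receptor, measured 265, 268 and 236 CPM in DMSO 6 h and 80.6, 126 and 149 CPM in recovery. All 3 recovery libraries were lower, by 1.11 ± 0.20 on the log2 scale (edgeR adjusted p = 0.0239). Adam12, a membrane metalloprotease active in myoblast fusion, fell from 18.4 ± 0.55 to 5.79 ± 1.51 CPM, and Angptl4, a secreted inhibitor of lipoprotein lipase, from 145 ± 8.34 to 67.3 ± 8.94 CPM. The remaining lower genes chosen by the naming rule were Ttll11, a tubulin polyglutamylase gene, at -1.598 ± 0.24, Gzme, a granzyme gene, at -1.68 ± 0.28, Tmem171 at -1.37 ± 0.22, and Lman1l at -1.77 ± 0.36. Also called lower, and named after their values were seen, were Il1rl1, the receptor of interleukin 33, from 2.65 ± 0.98 to 0.319 ± 0.21 CPM, and Edn1, the vasoconstrictor peptide endothelin 1, from 2.77 ± 0.56 to 0.891 ± 0.21 CPM. So were Cx3cl1, the chemokine fractalkine (log2 -0.87 ± 0.14), Stc2, the secreted glycoprotein stanniocalcin 2 (-0.95 ± 0.17), and Dusp9, a MAP kinase phosphatase (-0.77 ± 0.16).

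**Figure D2:**
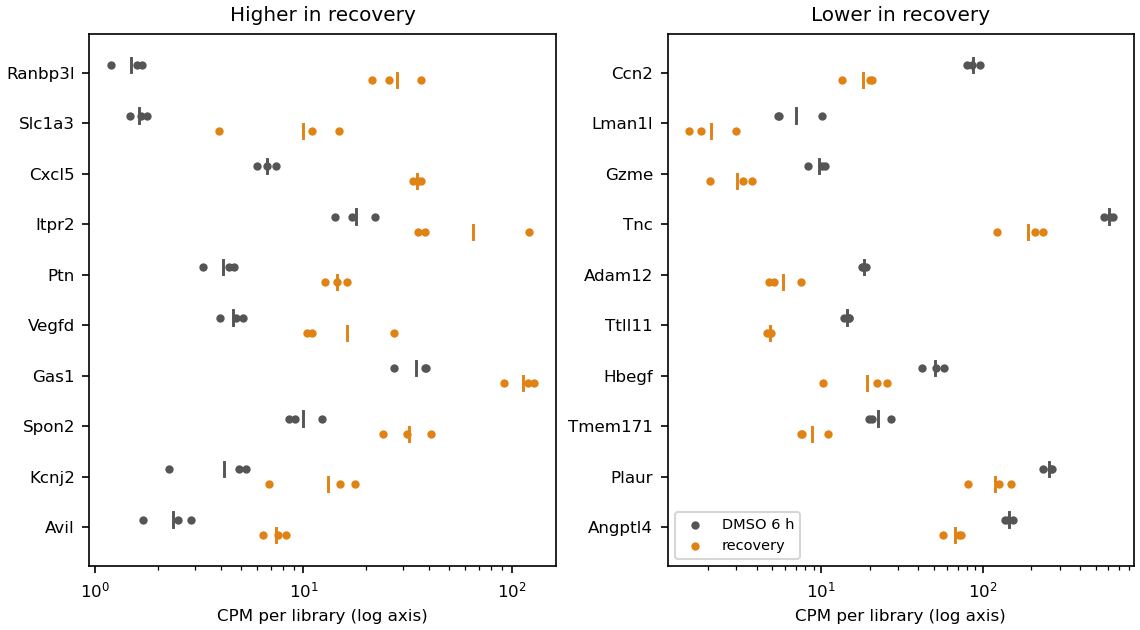
Each dot is 1 library and each short bar a group mean, in CPM on a log axis, for the 10 genes called higher and the 10 called lower that the naming rule chose (grey, DMSO 6 h; orange, recovery; 3 libraries each). In every gene shown the orange dots lie wholly to 1 side of the grey dots, as the naming rule required, and for Itpr2 and Vegfd 1 recovery library lies well to the right of the other 2.

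The promoters of called genes were searched for short motifs of factors that act in these pathways, on both strands, in the 120 bases before the RefSeq start (GRCm38.p6). The table holds 32851 promoters and matched 43 of the 59 called genes. The AP-1 letters TGANTCA were in 3 of the 43 (Col6a1, Diras2 and Plaur) and in 3.41% of all promoters. The cyclic AMP response element TGACGTCA was in 3 (Areg, Daam2 and Hlf) and in 1.24% of all, and the TEAD letters CATTCC in 2 (Col6a2 and Olfml3) and in 5.82% of all. The composite C/EBP-ATF letters TGATGNAAT were in 0 of the 43 and in 0.454% of all promoters. A called gene was counted when any of its promoters held the letters, whereas the percentages count each promoter singly, so the 2 are not like measures. A match is a description of the sequence and not a bound site. The Col6a1 window lies before its RefSeq start but inside the GENCODE span of the gene given above, so the 2 annotations place its start differently. Shown with the motif in capitals, 5′ to 3′ on the gene's strand, are the windows of 2 genes that fell, Areg (chr5:91139479-91139598, plus strand) and Plaur (chr7:24462363-24462482, plus strand), and 1 that rose, Col6a1 (chr10:76726045-76726164, minus strand).
Areg: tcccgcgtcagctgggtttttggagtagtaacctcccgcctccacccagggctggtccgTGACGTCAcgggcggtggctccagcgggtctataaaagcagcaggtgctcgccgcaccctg
Plaur: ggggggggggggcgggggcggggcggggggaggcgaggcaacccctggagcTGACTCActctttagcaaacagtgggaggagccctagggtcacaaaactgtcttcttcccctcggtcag
Col6a1: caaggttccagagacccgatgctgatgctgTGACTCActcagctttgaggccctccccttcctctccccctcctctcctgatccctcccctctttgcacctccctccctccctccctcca

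None of the 10 genes of the stress response panel was called against DMSO 6 h, though alternative fits called Trib3 and Chac1. Atf4 measured 683, 608 and 669 CPM in DMSO 6 h and 510, 503 and 650 CPM in recovery. The groups overlapped, and the 95% interval of the log2 difference was -0.71 to 0.23 (edgeR adjusted p = 0.812). Its partner Cebpg measured 38.6, 38.1 and 37.2 CPM in DMSO 6 h and 38.7, 50.3 and 48.3 CPM in recovery, with an interval of -0.15 to 0.70. Trib3, a pseudokinase induced by and acting back on ATF4 and CHOP, measured 19.96, 17.1 and 22.5 CPM in DMSO 6 h and 38.3, 39.8 and 43.2 CPM in recovery. Its recovery libraries were above all 8 vehicle libraries of the series, and the interval of the log2 difference was 0.45 to 1.595, but the adjusted p was 0.153. It was called higher by DESeq2 (adjusted p = 0.00277), in edgeR with offsets for trends in transcript length and GC content (0.0466) and in edgeR without the 2 libraries of high mitochondrial share (0.00339). Chac1, which degrades glutathione, measured 55.2, 40.9 and 75.04 CPM in DMSO 6 h and 145, 69.5 and 87.6 CPM in recovery (interval 0.17 to 1.47, edgeR adjusted p = 0.373, and 0.0236 with length and GC offsets). Ddit3, which encodes CHOP, measured 40.0, 28.0 and 96.7 CPM in DMSO 6 h and 197, 23.8 and 41.6 CPM in recovery. The groups overlapped, and the log2 difference of 0.67 with all libraries was -0.75 without recovery replicate 1 (edgeR adjusted p = 0.817 and 0.471). Cebpb, likewise highest in recovery replicate 1, had a difference of 0.55 with it and -0.09 without it, and was not called either way.

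Asns, asparagine synthetase, measured 178, 182 and 237 CPM in DMSO 6 h and 273, 245 and 262 CPM in recovery, a difference of 0.39 ± 0.18 on the log2 scale (edgeR adjusted p = 0.494). Atf3 stood at 16.8 CPM in each group (SD 2.69 in DMSO 6 h and 7.84 in recovery). Hspa5, which encodes the chaperone BiP, measured 1346, 1489 and 906 CPM in DMSO 6 h and 293, 892 and 865 CPM in recovery. Every recovery library was below every DMSO 6 h library, with replicate 1 the lowest, and the difference was -0.87 ± 0.33 (edgeR adjusted p = 0.392). Atp2a2, which encodes the SERCA2 pump that thapsigargin blocks, differed by -0.25 ± 0.26. At the end of the drug the levels had been far higher: 1871 ± 280 CPM for Atf4, 520 ± 69.4 CPM for Trib3 and 12876 ± 1231 CPM for Hspa5. Against the thapsigargin 6 h libraries, 9 of the 10 panel genes were called lower in recovery (13.9% of all genes tested were called lower in that comparison), and Cebpb had an adjusted p of 0.0584.

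**Figure D3:**
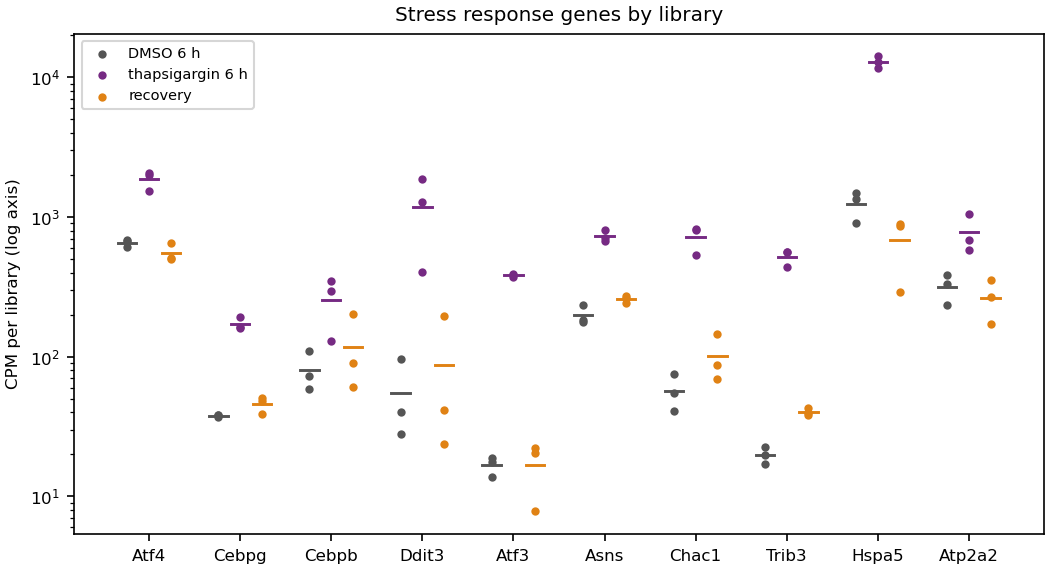
Each dot is 1 library and each bar a group mean, in CPM on a log axis, for 10 genes of the stress response in DMSO 6 h (grey), thapsigargin 6 h (purple) and recovery (orange), 3 libraries each. The orange and grey means stand at 555 and 653 CPM for Atf4, at 40.4 and 19.9 CPM for Trib3 and at 683 and 1247 CPM for Hspa5, and the purple mean lies above both for each gene.

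The called genes stood at varied levels at the end of the drug, given here side by side with recovery because both comparisons share the DMSO 6 h libraries. Avil was at 91.5 ± 8.05 CPM at thapsigargin 6 h, 7.42 ± 0.94 CPM in recovery and 2.36 ± 0.61 CPM in DMSO 6 h. Gpt2 was at 376 ± 43.6, 94.5 ± 4.39 and 45.7 ± 2.22 CPM in the same order, so that for both genes recovery lay between drug and vehicle. Col6a1 was at 9.15 ± 1.18 CPM at thapsigargin 6 h, 192 ± 40.6 CPM in recovery and 67.7 ± 11.9 CPM in DMSO 6 h. Gas1 was at 6.82 ± 0.82, 113 ± 18.9 and 34.8 ± 6.56 CPM, and Spon2 at 1.23 ± 0.18, 32.1 ± 8.47 and 9.98 ± 2.00 CPM. For these 3 genes the drug libraries were below DMSO 6 h and the recovery libraries above it. The other vehicle times differed. Col6a1 was at 150 ± 5.40 CPM in DMSO 2 h and at 148 and 133 CPM in DMSO 12 h, and recovery was not called against either (edgeR adjusted p = 0.133 and 0.116). Gas1 was at 46.5 ± 4.88 CPM in DMSO 2 h, below recovery, but at 265 and 235 CPM in DMSO 12 h, above every recovery library. Spon2 was called higher in recovery against each vehicle group. Stc2 was at 102 ± 12.7 CPM at thapsigargin 6 h, 11.1 ± 0.39 CPM in recovery and 21.6 ± 4.03 CPM in DMSO 6 h, the opposite arrangement. It was at 16.8 ± 1.34 CPM in DMSO 2 h, above recovery, but at 10.7 and 11.6 CPM in DMSO 12 h, level with recovery. Tnc was at 300 ± 11.8 CPM at thapsigargin 6 h and 190 ± 59.2 CPM in recovery, both below the 606 ± 35.7 CPM of DMSO 6 h.

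Of 28 gene lists, 6 held called members, 9 genes in all, and these are read against the background of 0.327% of all genes tested. Of 30 collagen and matrix genes tested, Col6a1 and Col6a2 rose, Tnc fell and 27 were not called, with a list median of 0.00. Of 24 NF-kB, chemokine and cytokine genes, Cxcl5 and Ccl7 rose, and Cxcl1, a further neutrophil chemokine, stood at 2.30 ± 1.004 CPM in DMSO 6 h and 7.76 ± 4.87 CPM in recovery without being called. Of 14 YAP-TEAD targets only Ccn2 was called. Ankrd1, another of those targets, had a difference of -0.59 ± 0.21 with non-overlapping groups (edgeR adjusted p = 0.325), while the list median was -0.25, and 0.10 without recovery replicate 1. Of 20 growth arrest and quiescence genes Gas1 was called, and the list median was 0.53, against 0.06 over all genes tested. It was -0.26 against DMSO 2 h and -0.18 against DMSO 12 h, where the median over all genes was 0.00. Amino acid synthesis (16 genes, median 0.13) held Gpt2, and calcium pumps and channels (19 genes tested, median 0.14) held Itpr2.

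ER chaperones and folding enzymes had 0 of 24 members called, with a median of -0.44 in recovery, and the highest value of the list was 0.85. In 8 of the 24 the recovery libraries were wholly below DMSO 6 h (5.43% of all genes tested were), and in 0 wholly above. These included Hspa5, Pdia6, a disulfide isomerase, at 723 ± 56.2 and 411 ± 110 CPM in DMSO 6 h and recovery, and Hyou1, an ER Hsp70-like chaperone, at 230 ± 17.6 and 147 ± 32.6 CPM. Sdf2l1 stood at 54.3 ± 7.24 and 28.6 ± 5.78 CPM, Creld2 at 182 ± 14.6 and 109 ± 18.0 CPM and the co-chaperone Dnajb11 at 127 ± 11.1 and 90.5 ± 18.8 CPM. Without the 2 libraries of high mitochondrial share in the series (recovery replicate 1 and DMSO 2 h replicate 3), 377 of all genes were called (2.12% of those tested) and 4 members of this list were called lower, against 0.859% of all genes in that fit. Leaving out recovery replicate 1 alone called 0 of its members, with a median of -0.32. The list's median at thapsigargin 6 h against the same DMSO 6 h libraries was 1.27. At the other vehicle times Hspa5 was at 777 ± 163 CPM (2 h) and at 776 and 793 CPM (12 h), beside 683 ± 338 CPM in recovery. Sdf2l1 was at 11.8 ± 4.71 CPM (2 h) and at 18.2 and 20.02 CPM (12 h), beside 28.6 ± 5.78 CPM in recovery.

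The integrated stress response list had 0 of 18 members called, with a median of 0.26 that was -0.06 without recovery replicate 1. Against the other vehicle times more of it was called: 12 of the 18 were higher in recovery than at DMSO 2 h (median 1.20, with 25.8% of all genes called higher) and 10 than at DMSO 12 h (median 1.001, with 17.4%). Its lowest p belonged to Fgf21, a stress hormone, at 0.116 ± 0.07 CPM in DMSO 6 h and 0.524 ± 0.18 CPM in recovery (edgeR adjusted p = 0.0635), far under its 71.2 ± 17.4 CPM at thapsigargin 6 h. Amino acid transporters (0 of 12 called, median 0.16, lowest p Slc6a9 at 1.36 ± 0.72), cytosolic tRNA synthetases (0 of 20, 0.14, Farsa at -0.52 ± 0.20) and ERAD and unfolded protein response signalling (0 of 21, -0.12, Selenos at -0.58 ± 0.26) were likewise without a call.

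Proliferation genes had no call either. DNA replication genes (0 of 26, median -0.25) had the lowest p for Orc6, a subunit of the origin recognition complex, at -0.52 ± 0.17, the G1/S list (0 of 18, 0.13) for Ccne1, cyclin E1, at -0.58 ± 0.18, and the mitosis list (0 of 25, 0.06) for Nusap1, a spindle protein, at 0.45 ± 0.20. Immediate early genes (0 of 22, median -0.07) had it for the AP-1 subunit Fosl2 at 0.66 ± 0.17, and p53 targets (0 of 23, -0.02) for Sesn1 at 0.74 ± 0.26.

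For muscle identity, 0 of 24 myogenic genes were called and the median was -0.05 (0.08 without recovery replicate 1). In 6 of the 24 recovery lay wholly below DMSO 6 h and in 1 wholly above, against 5.43% and 4.71% of all genes tested. Myod1, the master myogenic factor, measured 112, 103 and 88.6 CPM in DMSO 6 h and 35.6, 65.1 and 81.8 CPM in recovery, a difference of -0.73 ± 0.24 (edgeR adjusted p = 0.269). Cdh15, M-cadherin, stood at 490 ± 32.2 and 358 ± 36.0 CPM. Id2 and Id3, inhibitors of myogenic factors, differed by -1.20 ± 0.39 and -0.89 ± 0.33. The sarcomere list (0 of 28 called, median 0.03, and -0.74 without recovery replicate 1) had its lowest p for Actn2, with 0 counts in all 3 recovery libraries, where 3 counts equal 0.0703 to 0.242 CPM, and 0.0623 to 0.183 CPM in DMSO 6 h.

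Interferon-stimulated genes had 0 of 26 called, a median of 0.56 (0.32 without recovery replicate 1) and 5 members wholly above DMSO 6 h, against 4.71% of all genes tested. Ifit1, an antiviral RNA-binding protein, measured 0.061, 0.374 and 0.514 CPM in DMSO 6 h and 5.80, 1.01 and 1.24 CPM in recovery (edgeR adjusted p = 0.0635), Stat2 differed by 0.58 ± 0.18 and Oasl2 by 1.27 ± 0.32. Members ran from -0.63 to 3.03. Against DMSO 2 h the list median was 1.005, with 14 called higher and 4 lower (25.8% and 22.3% of all genes tested). Against DMSO 12 h it was -0.41, with 4 called higher and 8 lower (17.4% and 14.7%). In complement and acute phase genes (0 of 11, median 0.02) the lowest p was that of Saa3, which reached at most 0.125 CPM in any of the 6 libraries. The IGF and TGF-beta list (0 of 23, 0.02) held Fst, follistatin, at 3.24 ± 0.48 and 1.05 ± 0.66 CPM (edgeR adjusted p = 0.075) and Igfbp5, an IGF-binding protein, at 364 ± 88.1 and 812 ± 268 CPM (adjusted p = 0.0849). Ogn, osteoglycin, of the matrix list, differed by 1.66 ± 0.40 (adjusted p = 0.107). Without recovery replicate 1 the values were -1.19 for Fst, 1.38 for Igfbp5 and 1.98 for Ogn, each then called (adjusted p = 0.0239, 0.00978 and 0.0162).

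Metabolic and organelle lists had no call: cholesterol synthesis (0 of 25, median 0.33, lowest p Fdps at 0.94 ± 0.33, and 0.32 without recovery replicate 1), lysosome and autophagy (0 of 25, 0.15), and NRF2 targets (0 of 19, -0.07, Gsta4 at -0.49 ± 0.28). The same held for cytosolic heat shock proteins (0 of 16, -0.21, Hspd1 at -0.47 ± 0.23), glycolysis (0 of 23, 0.07, Pfkm at 0.52 ± 0.20) and nuclear subunits of oxidative phosphorylation (0 of 30, -0.04, Cox5a at -0.67 ± 0.31). The 13 mitochondrially encoded mRNAs had 0 called and a median of 2.08, which was -0.76 without recovery replicate 1. For mt-Co3, a subunit of cytochrome oxidase, the recovery libraries measured 296, 13.9 and 16.2 CPM against 21.5, 18.6 and 33.8 CPM in DMSO 6 h, so that replicate 1 alone was above the vehicle.

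**Figure D4:**
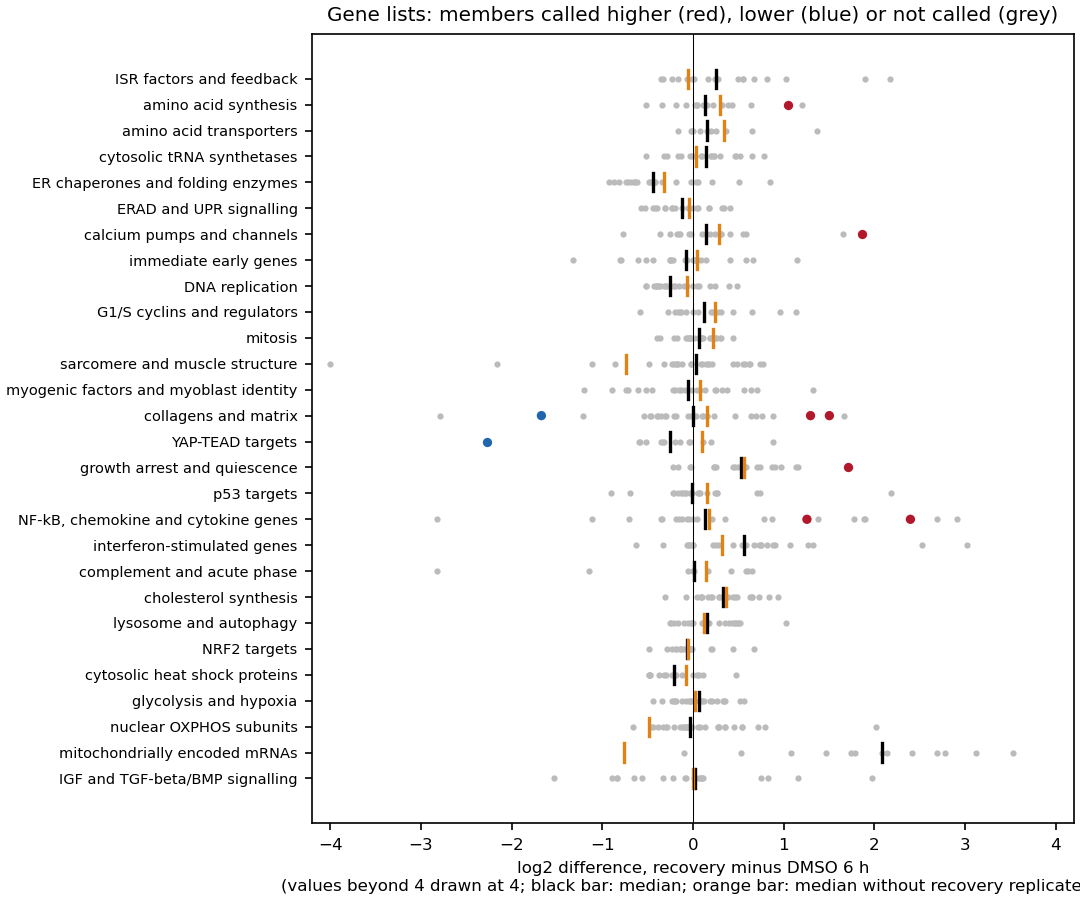
Each dot is a list member tested, at its log2 difference of recovery minus DMSO 6 h (red, called higher; blue, called lower; grey, not called), with black bars for the list median and orange bars for the median without recovery replicate 1. The black bar of the ER chaperones sits at -0.44 and that of growth arrest genes at 0.53, and the 2 bars lie far apart for mitochondrially encoded mRNAs, at 2.08 and -0.76.

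The result depended on which vehicle time stood as the control. Recovery against DMSO 2 h called 8668 genes (48.1% of those tested) and against DMSO 12 h 5794 (32.1%). The vehicle groups differed from each other in 8955 genes between 6 h and 2 h (49.6%) and in 6393 between 12 h and 6 h (35.4%). Between 12 h and 2 h only 1293 of 18039 genes were called (547 higher and 746 lower at 12 h). DMSO 6 h, the control used here, was thus the vehicle group that stood apart from the other vehicle groups. All 3 comparisons of recovery share its libraries. The length trend of the libraries, given above, moved with these vehicle differences, and its part in them was not tested. Of the 37 genes higher than at DMSO 6 h, 12 were also called higher than at DMSO 2 h (25.8% of all genes tested were) and 9 than at DMSO 12 h (17.4%), but 4 and 12 were called lower (22.3% and 14.7%). Those called higher against all 3 vehicle groups were Gpt2, Avil and Spon2. Recovery was above all 8 vehicle libraries for these 3 and for Gm3716, a long noncoding RNA gene (0.992% of all genes tested were above all 8). Of the 22 lower genes, 15 were called lower than at DMSO 2 h with 0 called higher, and 7 lower and 5 higher than at DMSO 12 h. Those lower against all 3 included Vmn2r79, Il1rl1, Ccn2 and Ttll11. In all, 9 of the 22 were below all 8 vehicle libraries (0.698% of all genes tested), among them these 4 and Gm19510, Edn1, Tnc and Hbegf.

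Individual genes show the range. Ranbp3l, low at DMSO 6 h, measured 35.1 ± 10.6 CPM in DMSO 2 h (n = 3) and 44.5 and 43.6 CPM in the 2 DMSO 12 h libraries, so recovery was 4.23 above DMSO 6 h but -0.33 from DMSO 2 h and -0.66 from DMSO 12 h on the log2 scale (edgeR adjusted p = 0.306 and 0.0869). Cxcl5 measured 597 and 542 CPM at DMSO 12 h, above every recovery library. Slc1a3 was at 10.8 ± 1.29 CPM in DMSO 2 h and at 20.4 and 18.8 CPM in DMSO 12 h, near or above recovery. Ccn2 was at 361 ± 6.63 CPM in DMSO 2 h and at 38.7 and 46.1 CPM in DMSO 12 h, all above recovery, with log2 differences of -4.32 and -1.23 (edgeR adjusted p = 1.25e-08 and 0.00197). Il1rl1 was at 15.3 ± 2.72 CPM in DMSO 2 h and at 10.6 and 11.8 CPM in DMSO 12 h, against 0.319 ± 0.21 CPM in recovery. Gpt2 was higher in recovery than at DMSO 2 h by 0.74 and than at DMSO 12 h by 0.94 (edgeR adjusted p = 0.00334 and 0.00607). Atf4 was not called against DMSO 6 h but was higher by 1.43 and 0.71 than at 2 h and 12 h (edgeR adjusted p = 0.000412 and 0.0442).

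**Figure D5:**
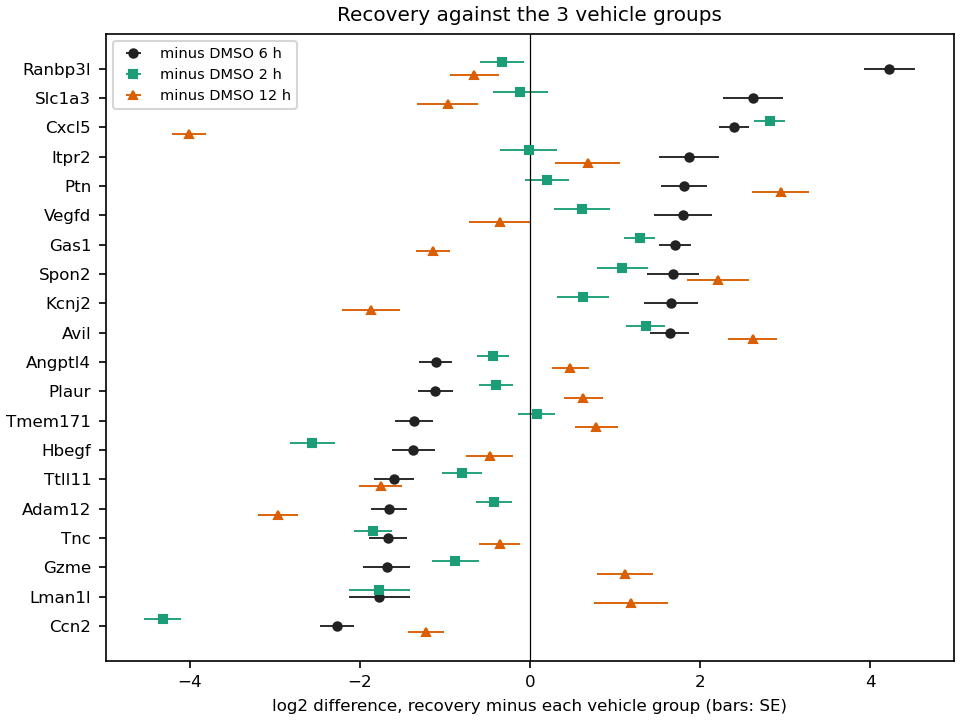
Points are log2 differences of recovery minus DMSO 6 h (black circles), DMSO 2 h (green squares) and DMSO 12 h (orange triangles), with bars for the SE from the same fit, for the 20 genes of the naming rule. Avil, Spon2, Ccn2 and Ttll11 keep their side of 0 against all 3 vehicle groups and were called against each, whereas Cxcl5 lies at 2.40 against DMSO 6 h and -4.01 against DMSO 12 h.

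Leaving out recovery replicate 1 gave 125 calls, 86 higher and 39 lower (0.699%, 0.481% and 0.218% of the genes tested in that fit), and 35 of the 37 higher and 21 of the 22 lower genes remained called. Leaving out each of the 6 libraries in turn gave from 22 calls (without DMSO 6 h replicate 1) to 125 calls, with 26 without DMSO 6 h replicate 2 and 25 without DMSO 6 h replicate 3. All 59 genes had the same sign in all 6 fits. Their groups did not overlap, so leaving out 1 library could hardly turn a sign, and the kept signs are not separate support. The call held in all 6 for 19 genes, 12 higher and 7 lower. Of the genes named above these were Ranbp3l, Slc1a3, Cxcl5, Ccl7, Ptn, Col6a1, Gas1, Avil, Kif21b and Kif26b among the higher genes, and Ccn2, Tnc, Adam12, Ttll11, Il1rl1, Edn1 and Vmn2r79, a vomeronasal receptor gene, among the lower. For the other 40 the call was lost in at least 1 fit, including Gpt2, Spon2, Col6a2, Hbegf, Areg and Plaur. With length and GC offsets the call was kept for 35 of the 37 higher and 19 of the 22 lower genes. Of the genes named above it was lost for Itpr2 (edgeR adjusted p = 0.059), Adamts5 (0.0661), Tmem171 (0.104) and Areg (0.143).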

How the data were processed

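Poly(A) RNA-seq of C2C12 cells was deposited as raw counts of reads per gene, one file per library (unit counts). The submitters' processing notes name Trim Galore, STAR 2.5.3a, bedtools 2.31.0, DESeq2 and mm10, and the counting tool and its strand setting are not named there or in the labels. In each deposited file 5 lines that name no gene (no feature 2.51% to 5.69% of reads, ambiguous 6.66% to 8.04%, not unique 4.77% to 15.4% in the 6 libraries) were left out. Of 55401 identifiers, 55141 matched GENCODE M21. Groups came from the labels. edgeR 4.0.16 (R 4.3.3; TMM factors, default low-count filter, quasi-likelihood F test, two-sided) was fitted to all 19 libraries with 1 mean per group, and CPM are per effective library size. p-values were adjusted over all genes tested. DESeq2 1.42.0, other scalings, length and GC offsets (splines of 5 degrees of freedom), leaving out libraries and the other vehicle times were alternatives. Intervals are 95%, and floors of 3 counts cover counting error only. Genes were named by rule: a panel of 10, the 10 highest and 10 lowest called genes with at least 5 CPM, no overlap of the groups and a gene symbol that is not a model name, and, per list, up to 4 called members or, with none called, the member of lowest p; a few genes this rule would name are not reported here. Members, lists and rule were chosen with earlier results of these data known. Expression near overlapping or antisense genes cannot be assigned without the strand setting.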

Additional observations from a re-analysis of the deposited data

How the results depend on the processing

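The count of 59 genes called (37 higher, 22 lower) was 17 (9, 8) with total counts, 422 (257, 165) with DESeq2, 0 (0, 0) on the 6 libraries alone, 198 (110, 88) with length and GC offsets, 377 (224, 153) without the 2 libraries of high mitochondrial share and 334 (183, 151) with offsets and without recovery replicate 1, a setting added after seeing the data. Against DMSO 2 h it was 8668 (4650, 4018) and against DMSO 12 h 5794 (3137, 2657), or 3102 for 12 h without recovery replicate 1. Leaving out each library gave 22 to 125 calls (12 to 86 higher, 8 to 39 lower) and 6 to 20 list members. The 9 list members called were 3 with total counts, 37 with DESeq2, 14 with no low-count filter, 0 on the 6 libraries alone, 27 with offsets, 43 without the 2 high-mitochondrial libraries, 44 with offsets and without recovery replicate 1, and 341 and 251 against DMSO 2 h and 12 h. Over all genes tested, 48.1% and 32.1% were called against DMSO 2 h and 12 h, and 65 of 34137 genes with no low-count filter. The list counts are no result about the lists, since calls over all genes shifted as well. The share of calls that were higher was 52.9% with total counts against 62.7%. The cause of these shifts was not tested. The labels do not say whether replicate numbers pair the samples. In deviations from the group means, same-numbered DMSO 6 h and recovery libraries correlated at -0.417, 0.686 and -0.505. Recovery replicate 1 correlated best with DMSO 6 h replicate 3 (0.736). Deviations within a group of 3 libraries depend on each other, so these values cannot decide whether the samples were paired. With the replicate block 42 genes were called (26 higher, 16 lower), and with the block plus length and GC offsets 130 (72, 58), with 18 list members.

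Among genes with values in the report, and called against DMSO 6 h or against the other vehicle, the sign turned with DMSO 2 h as the control for Atf4 (1.43), Ranbp3l (-0.33), Slc1a3 (-0.11), Itpr2 (-0.016), Tmem171 (0.0768), Fosl2 (-1.37), Cox5a (0.99), Dusp9 (0.0646), Casp4 (-0.19), Sdf2l1 (1.28), Creld2 (1.24), Igfbp5 (-1.87) and Ogn (-0.998), and for Hlf (-1.66) and Diras2 (-1.82), named for their promoters, as log2 differences. With DMSO 12 h it turned for Atf4 (0.71), Ranbp3l (-0.66), Slc1a3 (-0.97), Cxcl5 (-4.01), Vegfd (-0.35), Gas1 (-1.14), Kcnj2 (-1.87), Lman1l (1.19), Gzme (1.12), Tmem171 (0.78), Plaur (0.63), Angptl4 (0.48), Fosl2 (-1.08), Ccl7 (-2.55), Gsta4 (1.04), Areg (1.79), Stc2 (0.000586), Olfml3 (-0.34), Adamts5 (-1.40), Casp4 (-1.28), Kif21b (-0.0526), Kif26b (-2.95), Creld2 (0.91), Oasl2 (-0.9998), Myod1 (2.08), Cdh15 (1.47), Id3 (1.68), Ankrd1 (0.76), Cxcl1 (-4.14), Hlf (-3.40) and Daam2 (-0.98). Turns of genes called in neither comparison are not listed. The cause was not tested. No sign of a called gene turned under another scaling or with a library left out, though the lack of overlap between the groups all but fixed the latter. At 3 counts per library the depth reaches 0.0703 to 0.242 CPM in recovery and 0.0916 to 0.119 CPM in DMSO 6 h.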
